A study of Mus musculus with 5 samples.

Results

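The 8 genes described here encode enzymes and regulators of fatty acid oxidation: the carnitine palmitoyltransferases Cpt1a and Cpt2, the acyl-CoA dehydrogenases Acadvl, Acadl and Acadm, the peroxisomal enzyme Ehhadh, the pyruvate dehydrogenase kinase Pdk4 and the nuclear receptor Ppara. They were taken by symbol from a table of 22885 genes, with the transcript of highest mean count where a gene had several. All 8 were found, and all 8 were among the 14586 genes that passed a filter on low counts. None of the 8 encodes an enzyme of ketone body synthesis, so the ketogenic genes are described from a separate list of other pathway genes.

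RNA was sequenced from intervillus cells, the proliferating epithelium between the villi of the newborn gut, captured by laser from the proximal jejunum of mice at postnatal day 0. The 2 mutant libraries, numbered 4 and 6, came from mice of genotype Dnmt1 L/L; VillinCre, in which a Cre recombinase under the promoter of the epithelial gene villin removes the DNA methyltransferase Dnmt1 from the gut epithelium. The 3 control libraries, numbered 1, 2 and 3, came from Dnmt1 L/+ littermates, whose labels name no Cre. By the labels, areas were picked by staining for Ki67, a protein of dividing cells, as negative in the mutants and positive in the controls, so genotype and the choice of areas cannot be told apart in any comparison below. Villin is a gene of epithelium, so other cells within the captured areas are not a target of this Cre.

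Fatty acids are burned in mitochondria after they have been linked to coenzyme A and carried across the inner membrane as carnitine esters. Chain-shortening then runs in cycles, each opened by an acyl-CoA dehydrogenase suited to the length of the chain, while peroxisomes shorten very long and dicarboxylic acids. PPARA is the transcription factor that raises many of these genes during suckling and fasting, and the newborn gut, fed on fat-rich milk, is one of the tissues outside the liver in which oxidation and ketogenesis genes are known to be active.

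Counted with 1 transcript per gene, the mutant libraries held 8742131 and 10274092 reads and the control libraries 10544673 to 13375368. Dnmt1, the targeted gene, was 39.1 ± 1.93 CPM in mutants (SD, n = 2) and 115 ± 17.8 CPM in controls (SD, n = 3), where CPM scales counts to a library of common size after TMM scaling of library size. Mki67, the transcript of Ki67, was lower in the mutants but not absent: it was 511 and 506 CPM in mutants and 927, 1022 and 773 CPM in controls, a fold of 0.560 (edgeR adjusted p = 0.00284). The areas labelled negative for the protein thus still held its transcript. Summed over 4 Y-linked genes, the mutants held 4 and 3 counts and the controls 2710 to 3160. Xist, made from the silenced X chromosome of female cells, had 10179 and 8277 counts in mutants and 42 to 72 in controls. Every difference below is thus also one between libraries with a female and with a male pattern of these transcripts. Whether the libraries stem from different mice is not stated in the labels, so the p-values speak for the variation among the 5 libraries, and that variation may be technical. General epithelial markers (Epcam, Cdh1, Krt8, Krt18, Krt19 and Cldn7) summed to 3065 to 3304 CPM in mutants and 3122 to 3399 CPM in controls. The sum covers genes that differed in opposite directions: of these 6, 1 (Krt18, fold 1.73) rose and 0 fell. Among the 5 that did not pass, Cdh1 and Krt8 had folds of 1.02 and 1.11. Epcam, Krt19 and Cldn7 had folds of 0.859, 0.850 and 0.803. Enterocyte markers, from the absorptive cells that cover the villi, summed to 38498 to 42466 CPM in mutants and 21330 to 28919 CPM in controls. Apoa4 alone averaged 16204 CPM in mutants and 6444 CPM in controls. Of these 10 markers, 6 rose. Apob, Lct, Vil1 and Anpep did not pass, with folds of 1.41, 1.09, 0.984 and 0.850. Of 10 mesenchymal and smooth muscle markers 6 rose as well, while 6.11% of all genes tested rose at an edgeR adjusted p under 0.05. These 10 summed to 1776 to 1904 CPM in mutants and 1158 to 1264 CPM in controls. Their part in the differences given below was not tested. In bulk samples of this kind, fewer cells of a type and less RNA per cell cannot be told apart.

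Set against each other per transcript length, the mitochondrial enzymes of long-chain oxidation were among the most abundant transcripts of this epithelium, and the order of the 8 genes was nearly the same in every library. Levels between genes are compared in the authors' deposited FPKM, reads scaled to transcript length and library size. Acadl, the long-chain acyl-CoA dehydrogenase, had 172 and 217 FPKM in mutants 4 and 6 and 170, 188 and 122 FPKM in controls 1, 2 and 3, and was the highest of the 8 in all 5 libraries. Cpt1a, which makes the carnitine esters at the outer membrane and is the regulated step of entry, came after it throughout, with 118 and 134 FPKM in mutants and 160, 142 and 112 FPKM in controls. Acadvl, the very-long-chain dehydrogenase, came next, and Cpt2, which returns the acyl group to coenzyme A on the inner side, followed it. Among the genes that passed the filter, these 4 lay at percentile 96.0 to 98.7 of mean FPKM in mutants and 96.8 to 98.5 in controls.

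The other 4 genes were lower. Ehhadh, which carries out hydration and dehydrogenation in peroxisomes, averaged 40.8 ± 3.96 FPKM in mutants and 38.2 ± 4.94 FPKM in controls. Acadm, the medium-chain dehydrogenase, averaged 31.5 ± 0.134 FPKM in mutants and 29.3 ± 5.95 FPKM in controls. Pdk4, which blocks the entry of pyruvate into mitochondrial oxidation when fat is burned, averaged 18.5 ± 0.450 FPKM in mutants and 25.9 ± 5.87 FPKM in controls. Acadm lay above Pdk4 in 4 libraries and below it in control 3. Ppara was the lowest of the 8 in all libraries, with 5.15 and 4.25 FPKM in mutants and 6.35, 7.13 and 5.01 FPKM in controls, near the middle of all genes that passed the filter (percentile 43.0 and 48.6). Neighbours in this order often overlapped across libraries: the ranges of Cpt1a and Acadvl overlapped, as did those of Acadvl and Cpt2 and those of Ehhadh and Acadm.

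**Figure D1:**
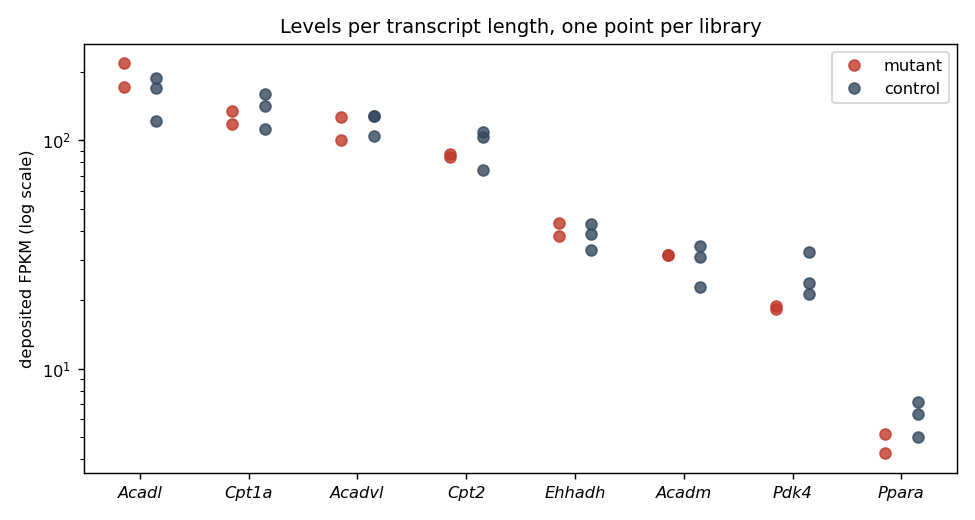
Deposited FPKM (log scale) of the 8 genes, ordered by mean level in the mutants, with 1 point per library (mutants left, controls right of each gene). Acadl lies highest, between 122 and 217 FPKM, and Ppara lowest, between 4.25 and 7.13 FPKM, with the points of both groups intermingled for most genes.

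Within each library the pair of carnitine palmitoyltransferases kept a steady ratio: Cpt1a over Cpt2 in FPKM was 1.39 and 1.54 in mutants and 1.47, 1.37 and 1.51 in controls. Among the dehydrogenases, the ratio of Acadl to Acadvl was 1.70 and 1.72 in mutants and 1.33, 1.47 and 1.17 in controls. Both mutants thus lay above all controls in this ratio, 1 of 4 ratios computed; it was chosen after earlier results of these data were known and is given without a test. The ratio of Acadl to Acadm was 5.47 and 6.88 in mutants and 5.51, 5.47 and 5.34 in controls, and the groups overlapped.

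Cpt1a was the main isoform of its family in every library. Cpt1a made up 94.7% and 94.6% of the summed FPKM of Cpt1a, Cpt1b and Cpt1c in the mutants and 98.9%, 98.8% and 98.2% in the controls. The share of Cpt1b, the isoform of muscle and brown fat, was 4.93% and 4.94% in mutants and 0.643%, 0.750% and 1.32% in controls. Among the 3 PPAR receptors, Ppara contributed 33.0% and 24.7% of FPKM in mutants and 29.6%, 36.0% and 25.8% in controls, and Pparg was the largest contributor in every library. Pdk4 contributed 36.5% and 34.9% of the FPKM of the 4 pyruvate dehydrogenase kinases in mutants and 32.5%, 31.2% and 46.2% in controls.

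Mutant and control libraries were then compared gene by gene, to ask whether transcript levels of the oxidation machinery differ where Dnmt1 is lost. None of the 8 genes passed the test: 0 rose and 0 fell at an adjusted p under 0.05 (edgeR's quasi-likelihood test with Benjamini-Hochberg adjustment over all transcripts tested). The background was 10.3% of genes called, or 6.11% called higher and 4.17% called lower. At an unadjusted p under 0.05 there was 1 of the 8, Pdk4, against 25.6% of all genes. Among the 4200 genes read at least as deeply as the lowest of the 8, 12.7% were called. The median log2 fold change (mutant over control) was -0.05 over the 8 genes and -0.01 over all genes tested, and the median absolute value was 0.20 over the 8, 0.28 over all genes and 0.20 over those read as deeply. The groups did not overlap in CPM for 3 of the 8 (Acadm above, Pdk4 and Ppara below all controls), against 43.5% of all genes.

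**Figure D2:**
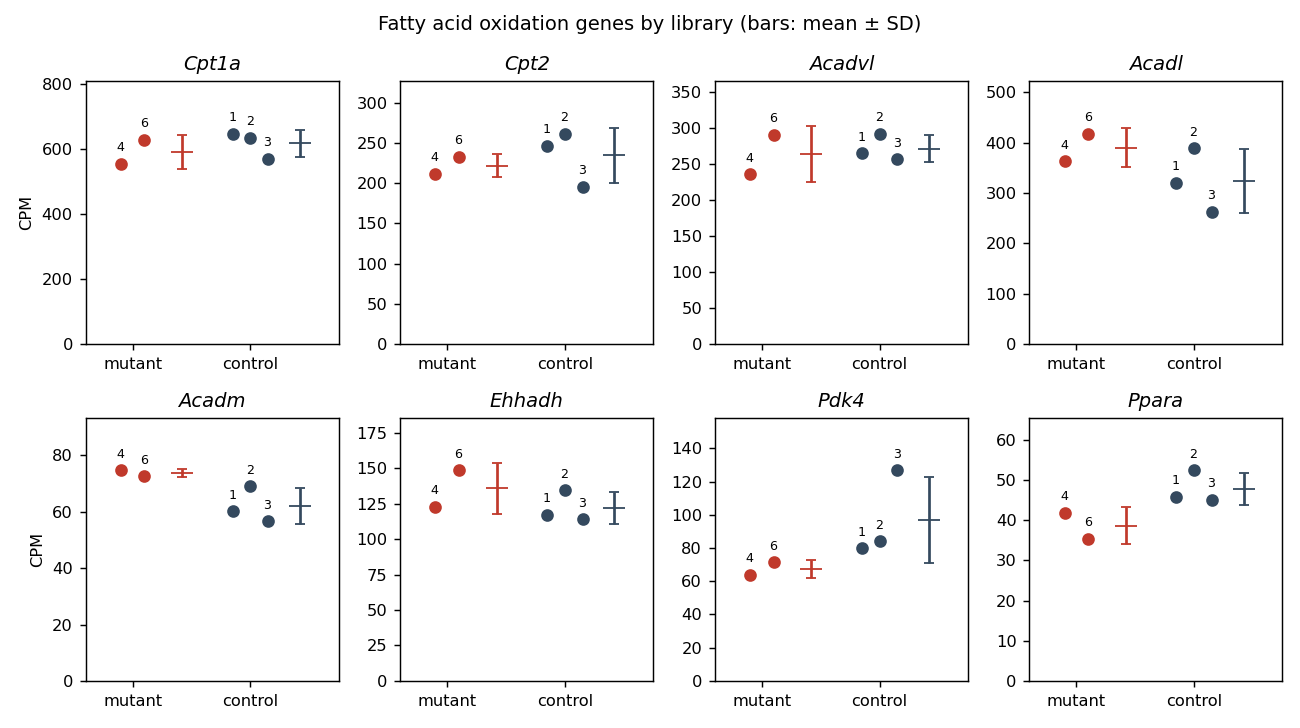
CPM of each gene in every library (numbered points; mutants left, controls right), with the mean and SD of each group as bars beside them. The groups overlap in 5 panels, and in Pdk4 control 3 stands above the other libraries at 127 CPM.

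The carnitine palmitoyltransferases did not pass the test, and their groups overlapped. Cpt1a was 555 and 629 CPM in mutants and 648, 635 and 569 CPM in controls. Mutant 6 lay among the controls and mutant 4 below them. The log2 fold change was -0.06 ± 0.13 (SE; edgeR adjusted p = 0.817), a fold of 0.959 with a 95% interval of 0.786 to 1.17. Cpt2 was 212 and 233 CPM in mutants and 246, 262 and 196 CPM in controls, so both mutants lay within the control range. Its fold was 0.947 (95% interval 0.760 to 1.18; edgeR adjusted p = 0.780). These intervals are for each gene alone, without adjustment for the number of genes.

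None of the 3 dehydrogenases passed either. Acadvl was 236 and 290 CPM in mutants and 265, 292 and 256 CPM in controls, a fold of 0.971 (95% interval 0.790 to 1.19; edgeR adjusted p = 0.882). Acadl was 363 and 418 CPM in mutants and 320, 389 and 263 CPM in controls. Mutant 6 was above all controls and mutant 4 below control 2. The log2 fold change of Acadl was 0.27 ± 0.16 (fold 1.20, 95% interval 0.946 to 1.53; edgeR adjusted p = 0.318). Acadm was 74.7 and 72.6 CPM in mutants and 60.1, 68.9 and 56.6 CPM in controls, with both mutants above every control. Its log2 fold change was 0.25 ± 0.14 (fold 1.19, 95% interval 0.970 to 1.46; edgeR adjusted p = 0.266). In the deposited FPKM the groups overlapped for Acadm, with 31.4 and 31.6 FPKM in mutants and 30.8, 34.4 and 22.8 FPKM in controls.

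The peroxisomal enzyme gene Ehhadh was 123 and 148 CPM in mutants and 117, 134 and 114 CPM in controls. Mutant 4 lay among the controls and mutant 6 above them. Its log2 fold change was 0.16 ± 0.14 (fold 1.11, 95% interval 0.907 to 1.37; edgeR adjusted p = 0.512).

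The regulators had the lowest fold changes of the 8. Pdk4 was 63.8 and 71.4 CPM in mutants and 79.7, 84.0 and 127 CPM in controls, so both mutants were below every control. Its log2 fold change was -0.52 ± 0.19 (fold 0.699, 95% interval 0.529 to 0.923; edgeR adjusted p = 0.0971, and 0.00867 to 0.405 over 16 alternative fits). The lowest of these came with no filter on low counts, the only alternative, DESeq2 and limma-voom included, in which one of the 8 genes passed. Control 3 was well above the other controls, and without it the log2 fold change of Pdk4 was -0.28 (edgeR adjusted p = 0.241). Ppara was 41.8 and 35.4 CPM in mutants and 45.7, 52.4 and 45.1 CPM in controls, again with both mutants below the controls. Its log2 fold change was -0.31 ± 0.15 (fold 0.809, 95% interval 0.645 to 1.01; edgeR adjusted p = 0.220). In FPKM mutant 4 lay between controls 3 and 1 for Ppara, so there the groups overlapped. A second Ppara transcript in the table had nearly the same counts (473 and 457 in mutants; 829, 882 and 639 in controls).

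**Figure D3:**
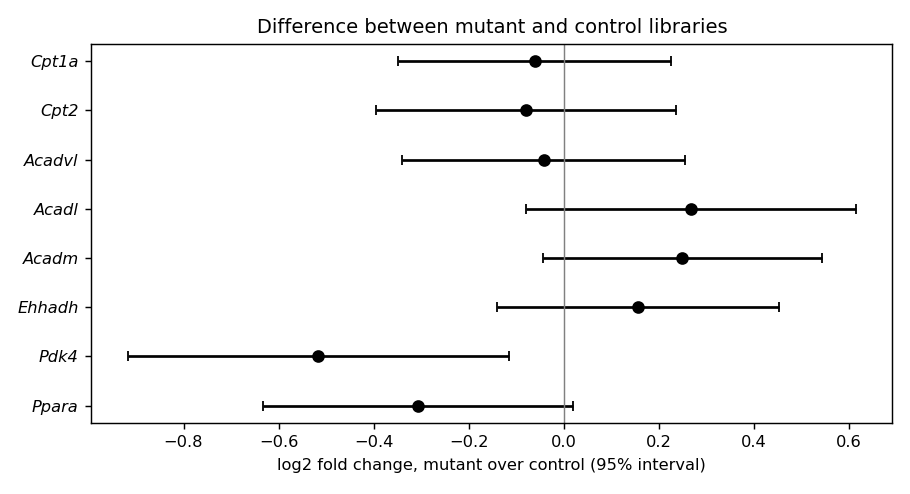
Log2 fold change, mutant over control, of the 8 genes (points) with the 95% interval of each gene alone (bars). The interval of Pdk4 runs from -0.92 to -0.12, and those of the other 7 genes include 0.

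The controls differed among themselves in these genes. Control 3 was the lowest of the controls in 7 of the 8 genes and the highest in Pdk4. Control 2 was the highest in 6. The highest control was 1.48 times the lowest for Acadl and 1.59 times for Pdk4, and 1.14 to 1.34 times for the other 6. In the same libraries the enterocyte markers summed to 21330 CPM in control 3, 24966 in control 1 and 28919 in control 2. Sis was highest in control 3, at 6.48 CPM against 5.95 and 5.50, and Anpep and Slc5a1 lay between the other controls. The rest of the enterocyte list, like the sum, was lowest there. The goblet cell markers were highest there, at 1107 CPM against 716 and 652. The part of both marker lists in the spread of the 8 oxidation genes was not tested.

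Promoter sequences are shown because Dnmt1 copies methylation at CG dinucleotides, and the 8 genes differ widely in how many CGs their promoters hold. Methylation itself was not measured here. RefSeq windows of 300 bases, 250 before to 50 after the start, were found for all 8. They are from build GRCm38.p6, whereas the counts were made on mm9. All 8 held more than 7 CGs, the median over 32851 windows that were not limited to genes passing the filter on low counts. Acadl held the most, with 34 CGs (percentile 93), followed by Ppara with 30, Cpt1a with 22, Cpt2 with 17, Ehhadh with 14, Acadm with 13, Pdk4 with 12 and Acadvl with 9 (percentile 56.5). The windows with the most and the fewest CGs, and that of Pdk4, which had the lowest fold change, are printed 5′ to 3′ with each CG in capitals.
Acadl, chr1:66863260-66863559, minus strand: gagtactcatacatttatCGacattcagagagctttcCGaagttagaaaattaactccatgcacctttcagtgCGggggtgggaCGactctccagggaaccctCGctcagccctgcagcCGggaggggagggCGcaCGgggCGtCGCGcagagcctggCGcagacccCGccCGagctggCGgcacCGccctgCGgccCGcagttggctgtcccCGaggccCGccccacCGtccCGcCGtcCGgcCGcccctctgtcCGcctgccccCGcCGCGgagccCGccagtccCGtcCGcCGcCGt
Pdk4, chr6:5496229-5496528, minus strand: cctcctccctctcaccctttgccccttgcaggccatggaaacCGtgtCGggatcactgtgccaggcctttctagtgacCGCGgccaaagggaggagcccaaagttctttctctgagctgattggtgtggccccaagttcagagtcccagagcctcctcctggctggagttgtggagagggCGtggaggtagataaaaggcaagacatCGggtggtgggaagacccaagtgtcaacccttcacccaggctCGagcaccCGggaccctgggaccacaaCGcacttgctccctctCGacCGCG
Acadvl, chr11:70015379-70015678, minus strand: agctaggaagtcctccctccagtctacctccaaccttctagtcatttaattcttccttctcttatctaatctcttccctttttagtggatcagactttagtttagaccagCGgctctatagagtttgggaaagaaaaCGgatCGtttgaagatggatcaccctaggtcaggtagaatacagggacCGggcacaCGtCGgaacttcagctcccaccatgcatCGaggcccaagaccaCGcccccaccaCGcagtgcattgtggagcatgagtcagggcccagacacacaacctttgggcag
None of these 3 genes passed the test; their folds, mutant over control, were 1.20 for Acadl, 0.699 for Pdk4 and 0.971 for Acadvl.

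The same windows were searched for AGGTCA, the element that PPAR and related nuclear receptors bind, on both strands. It was present in 3 of the 8 (Cpt1a, Acadvl and Acadm, 1 copy each) and in 16.3% of all windows. Its direct repeat with any 1 base between the copies is the form PPAR binds with its partner RXR. Matches with up to 2 mismatches, which may include the single element, were in 0 of the 8 and in 3.86% of all windows. These letters may lie outside the windows searched, and a match is not a binding site.

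Beyond the 8, 113 other genes of fatty acid handling, ketone bodies, PPAR signalling and pyruvate entry were found in the table, of which 108 passed the filter. Of these 12 rose and 5 fell (11.1% and 4.63%), beside the background of 6.11% and 4.17%, and 91 did not pass. Only the rises of Cpt1b, Cd36 and Acox2 passed without each of the 5 libraries in turn. Slc16a6 no longer passed without mutant 6, and each of the other 13 was lost in 2 or more of these fits, always including the fit without control 1 and that without mutant 4, except that Acaca was lost in all 5. The sums of enterocyte and mesenchymal markers were also higher in the mutants, as given above, with 6 of 10 rising in each list.

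**Figure D4:**
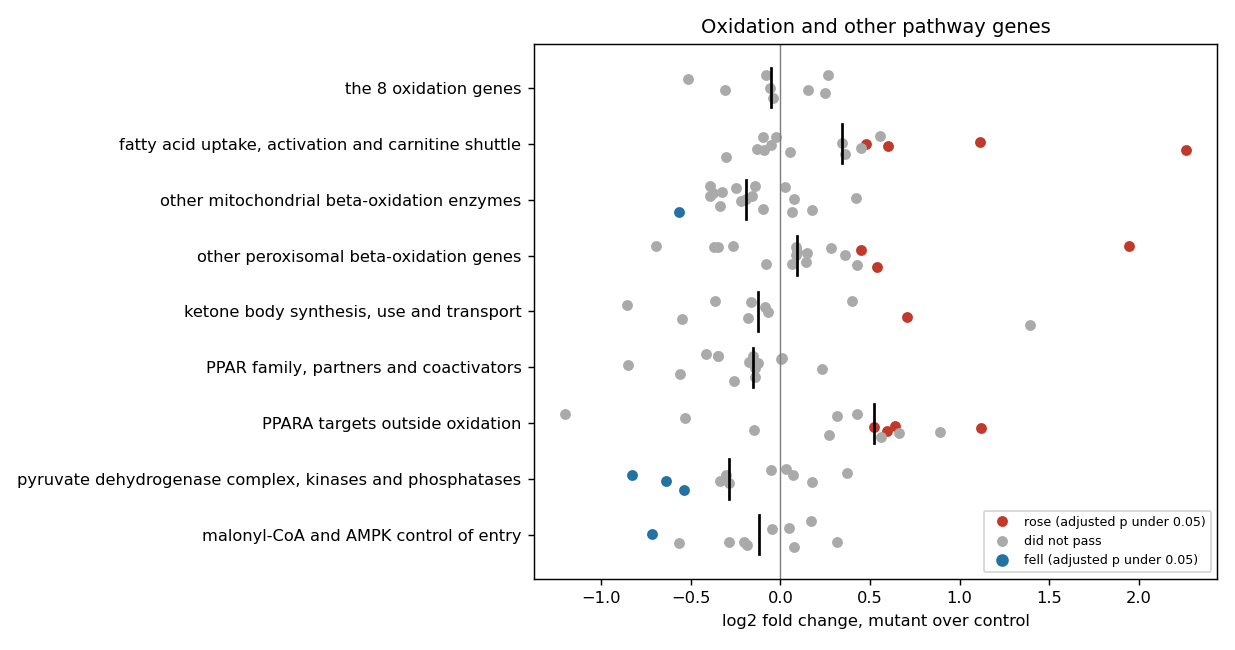
Log2 fold change, mutant over control, of the 8 genes and of the tested genes in each list of other pathway genes; black bars are list medians and coloured points passed the test. The 8 genes lie between -0.52 and 0.27, while Cpt1b reaches 2.26 and Acox2 1.94.

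Genes of fatty acid uptake, activation and the carnitine shuttle held the largest single rise. Of 15 tested, 4 rose (26.7%, against 6.11% of all genes) and 11 did not pass. The median log2 fold change was 0.34, against -0.01 over all genes. Cpt1b, the relative of Cpt1a, was 20.4 and 22.4 CPM in mutants and 3.85, 3.196 and 6.41 CPM in controls. The groups lay far apart, and the log2 fold change was 2.26 ± 0.28 (fold 4.81; edgeR adjusted p = 0.000172). Per length it was still low beside Cpt1a, at 6.13 and 6.999 FPKM in mutants and 1.04, 1.08 and 1.498 FPKM in controls. In the genome Cpt1b follows the choline kinase gene Chkb, and the table also lists a transcript that spans both. The log2 difference was 0.16 for Chkb (edgeR adjusted p = 0.482). For the spanning transcript BC090627, which can share reads with both genes, it was 0.54 (edgeR adjusted p = 0.0177). Of 8 striated muscle markers 4 were tested and 2 rose, the actin genes Acta1 and Actc1, while Tnnt2 and Tnni1 did not pass. The 8 summed to 14.7 and 8.95 CPM in mutants and 3.30 to 3.87 CPM in controls. Acta1 gave 7.34 and 3.63 CPM and Actc1 2.12 and 3.16 CPM of the mutant sums. Myh7, Ckm and Myh3 did not pass the filter on low counts, and Myl2 was at 0 throughout. The 7 adipocyte markers summed to 1.95 and 1.85 CPM in mutants and 0.165 to 0.563 CPM in controls, and 1 of 1 tested rose. That gene was Cidea, a lipid droplet protein of brown fat, at 1.77 and 1.70 CPM in mutants and 0.0551, 0.0592 and 0.211 CPM in controls (edgeR adjusted p = 0.00437). Ucp1, the uncoupling protein that defines brown fat, was at 0 in both mutants and at 0.0551 to 0.141 CPM in controls, and Adipoq was at 0 in every library. The part of such cells in the rise of Cpt1b was not tested.

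Cd36, a fatty acid receptor and transporter, was 155 and 140 CPM in mutants and 61.9, 84.8 and 57.9 CPM in controls (log2 fold change 1.11 ± 0.16; edgeR adjusted p = 0.000663). Both mutants lay well above the controls. Cd36 is also a gene of endothelium and macrophages. Endothelial markers summed to 174 and 192 CPM in mutants and 137 to 167 CPM in controls, with 0 of 6 called. Immune markers summed to 224 and 243 CPM in mutants and 85.1 to 127 CPM in controls. Of 6 immune markers tested, 1 (Csf1r) rose and 5 did not pass. Most of the immune sum in the mutants was Csf1r, at 175 and 160 CPM in mutants 4 and 6. It was 61.1, 70.1 and 41.4 CPM in controls 1, 2 and 3. The part of these cell types in the rise of Cd36 was not tested. Acsl5, which activates long-chain fatty acids in enterocytes, rose by 0.60 ± 0.17 log2 units, and Crat, carnitine acetyltransferase, by 0.48 ± 0.13. Slc25a20, which exchanges acylcarnitines across the inner membrane between Cpt1a and Cpt2, was 120 ± 19.2 CPM in mutants and 128 ± 17.3 CPM in controls and did not pass (edgeR adjusted p = 0.757).

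The other mitochondrial enzymes gave 0 rises and 1 fall among 17 tested (5.88% fell, against 4.17% of all genes), with median -0.19. Hsd17b10, a dehydrogenase of short and branched chains, was 36.0 and 41.3 CPM in mutants and 56.4, 62.7 and 52.2 CPM in controls (log2 fold change -0.56 ± 0.15; edgeR adjusted p = 0.0285). The trifunctional protein genes Hadha and Hadhb, which complete the cycle for long chains, did not pass (log2 fold changes -0.14 and -0.19), nor did the thiolase Acaa2 (-0.33). The short-chain dehydrogenase Acads gave -0.39 ± 0.16 on the log2 scale (edgeR adjusted p = 0.137), beside 0.25 for Acadm and 0.27 for Acadl; the differences between these genes were not tested.

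Among peroxisomal genes 3 of 17 tested rose (17.6%, against 6.11% of all genes) and 0 fell (median 0.09). Acox2, the oxidase of branched chains and bile acid precursors, was 12.5 and 10.03 CPM in mutants and 1.98, 3.97 and 2.82 CPM in controls (log2 fold change 1.94 ± 0.32; edgeR adjusted p = 0.00179). The groups did not overlap. Crot, which makes carnitine esters of shortened chains, rose by 0.45 ± 0.13 log2 units, and Phyh, which starts the breakdown of phytanic acid, by 0.54 ± 0.16.

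Of 10 genes of ketone body synthesis, use and transport 1 rose (10%, against 6.11% of all genes) and 0 fell (median -0.12). Bdh1, which interconverts the main ketone bodies, was 179 ± 17.5 CPM in mutants and 203 ± 14.2 CPM in controls and did not pass (edgeR adjusted p = 0.411). Slc16a6, a transporter known from zebrafish to export ketone bodies, was 366 and 393 CPM in mutants and 207, 229 and 261 CPM in controls (log2 fold change 0.71 ± 0.14; edgeR adjusted p = 0.00499).

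None of 15 PPAR family members, partners and coactivators passed the edgeR test with adjustment over all transcripts, against 10.3% of all genes. Of the 15, 5 had an unadjusted p under 0.05, beside 25.6% of all genes. Lpin1, a phosphatidate phosphatase and coactivator of PPARA, was nearest, at 6.46 and 9.41 CPM in mutants and 18.1, 12.2 and 12.7 CPM in controls (log2 fold change -0.85 ± 0.26; edgeR adjusted p = 0.0570). It passed in 4 of the 16 alternative fits: no filter on low counts, DESeq2, the edgeR exact test and the fit without control 3. Of the receptors related to Ppara, Pparg was 17.8 CPM in both groups and Ppard 12.2 ± 1.21 CPM in mutants and 13.4 ± 4.46 CPM in controls.

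Of 13 genes tested that are known PPARA targets outside oxidation, 4 rose (30.8%, against 6.11% of all genes) and 0 fell (median 0.52). The 4 were Plin2, Acot12, Acot4 and Mgll. Plin2, a coat protein of lipid droplets, was 659 and 611 CPM in mutants and 344, 398 and 518 CPM in controls (log2 fold change 0.60 ± 0.16; edgeR adjusted p = 0.0331). Acot12, an acetyl-CoA thioesterase, rose by 1.12 ± 0.25 log2 units. Acot4, a thioesterase of peroxisomes with close copies among its neighbours that may share reads, rose by 0.52 ± 0.16, and Mgll, monoacylglycerol lipase, by 0.64 ± 0.18. Among the 9 that did not pass, 6 had positive and 3 negative log2 fold changes. The negative ones were Cyp4a10, a fatty acid omega-hydroxylase (-1.20; edgeR adjusted p = 0.126), the mitochondrial carrier Ucp2 (-0.53; edgeR adjusted p = 0.108) and the triglyceride lipase Pnpla2 (-0.15; edgeR adjusted p = 0.588). Angptl4, a secreted inhibitor of lipoprotein lipase, was 44.9 ± 2.58 CPM in mutants and 36.1 ± 3.37 CPM in controls (edgeR adjusted p = 0.203).

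The pyruvate dehydrogenase kinases Pdk1 and Pdk2 fell. Of 11 genes of the complex and its control, 3 fell (27.3%, against 4.17% of all genes) and 0 rose (median -0.29). Pdk1 was 26.3 and 30.2 CPM in mutants and 45.3, 43.4 and 43.6 CPM in controls (log2 fold change -0.64 ± 0.15; edgeR adjusted p = 0.0151). Pdk2 was 35.5 and 38.4 CPM in mutants and 56.3, 55.5 and 49.1 CPM in controls (-0.54 ± 0.15; edgeR adjusted p = 0.0313). In both, the mutants lay below every control. Pdk3 had a log2 fold change of -0.31 ± 0.17 and did not pass, and that of Pdk4, given above, was -0.52. Pdpr, the regulatory subunit of the phosphatase that opposes the kinases, fell by 0.83 ± 0.20 on the log2 scale. In the same libraries 10 proliferation markers, Mki67 among them, summed to 1098 and 1104 CPM in mutants and 1587 to 1994 CPM in controls. Of the 10, 8 fell and 1, the replication gene Mcm2, rose (log2 fold change 0.52; edgeR adjusted p = 0.0307), and their part in these falls was not tested.

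Of 10 genes that control entry through malonyl-CoA, the inhibitor of Cpt1a, 1 fell (10%, against 4.17% of all genes) and 0 rose. Acaca, acetyl-CoA carboxylase 1, was 10.5 CPM in each mutant and 14.6, 19.2 and 18.1 CPM in controls (log2 fold change -0.72 ± 0.21; edgeR adjusted p = 0.0457). Mlycd, which removes malonyl-CoA, had a log2 fold change of 0.17 and did not pass.

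**Figure D5:**
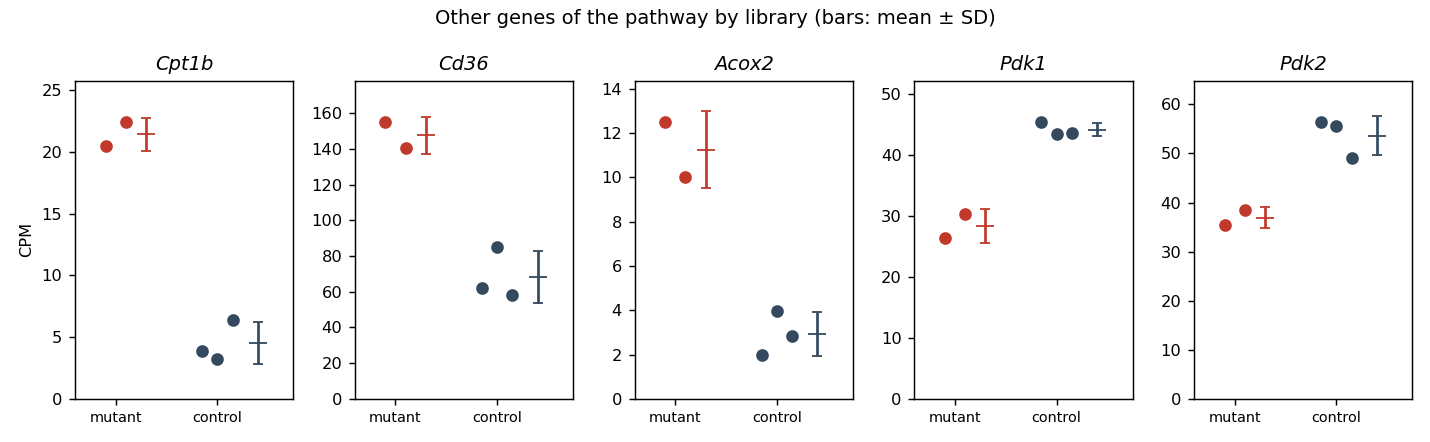
CPM of 5 other pathway genes in every library (mutants left, controls right of each panel; bars are mean and SD). Cpt1b, Cd36, Acox2, Pdk1 and Pdk2 are all genes that passed the test. Their groups do not overlap, which also holds for 43.5% of all genes tested.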

How the data were processed

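The deposited files are 2 tables of 28644 transcript rows, one of raw counts and one of FPKM, both made by the authors; per the submitters' processing notes, build mm9 and edgeR were used. Aligner, counting program and use of strand: not given in the sources used here. Symbols turned into dates (41 rows) were replaced by the transcript name. Counts were tested in R 4.3.3 with edgeR 4.0.16 (quasi-likelihood F-test, default filter, TMM, 3 residual and 13.4 total degrees of freedom), with Benjamini-Hochberg adjustment over 19353 transcripts. SE is the absolute log2 fold change over the square root of F, and intervals use it. FPKM were tested on log2(FPKM + 1) with limma 3.58.1; DESeq2 1.42.0 was another alternative. The 8 genes and all lists were chosen with earlier results of these data known. Named genes outside the 8 are every one called (up to 25) and, in a list with 0 called, the one of smallest p, plus 1 or more unpassed enzymes per list named for their role after values were seen. Genes most like a called gene of the 8 were to be named, and 0 were called. Amplified reads are not independent molecules. Some genes of the lists are counted but not reported here by name.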

Additional observations from a re-analysis of the deposited data

How the results depend on the processing

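No paired analysis was possible because the mutants are numbered 4 and 6 and the controls 1, 2 and 3. Of the 8 genes, 0 rose in any of 16 alternative fits, and 1, Pdk4, fell with no filter on low counts; the cause was not tested. Leaving out 1 library at a time turned the sign of 3 uncalled genes: log2 fold changes ranged from -0.16 to 0.0267 for Cpt1a (above 0 without mutant 4), from -0.19 to 0.0213 for Cpt2 (above 0 without control 2) and from -0.20 to 0.10 for Acadvl (above 0 without control 2 or mutant 4). Over all genes, 891 rises and 608 falls became 408 to 1057 and 170 to 645 when 1 library was left out. On FPKM with pseudocount 1, with pseudocount 0.1, and with a mean of at least 1, they became 97, 155 and 258 rises and 13, 36 and 131 falls. With no filter there were 1331 rises and 935 falls. Of the other pathway genes, 12 rises and 5 falls became 4 to 15 and 0 to 8 when 1 control library was left out. They became 0, 1 and 4 rises and 0 falls on these FPKM settings, and 18 rises and 10 falls with no filter. With RLE and upper-quartile scaling 17 and 16 of these 17 calls were kept, and the median of all genes moved by at most 0.04 log2 units. Pdk1 and Pdk2 were lost without control 1, mutant 4 or mutant 6, and Pdk2 also without control 2. With 2 mutant libraries the precision is limited: the 95% intervals of the 8 genes together span folds of 0.529 to 1.53.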
